A study of Mus musculus with 7 samples.

Results

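Mast cells are tissue-resident immune cells whose granules hold histamine, heparin and very large amounts of a few proteases. For these cells and the related basophils, 10 genes were followed through the 7 tumour libraries. They were chosen by symbol, as rows of the gene table that map to Mcpt1, Mcpt2, Mcpt4, Cma1, Tpsb2, Cpa3, Mcpt8, Hdc, Kit and Fcer1a. All 10 members of this list were found among 55487 genes. The choice was made with their levels in these libraries known, so the levels and differences of the 10 genes are a description and carry no test.

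The tumours grew from 4T1-12b(luc) cells, a luciferase-carrying line of 4T1 mouse mammary carcinoma, in the mammary fat pads of BALB/c mice with genotype WT. From about 150 mm3 on they received 6 injections of 50 µl into the tumour, 1 every other day, and were labelled day 12. Saline was given to 3 of them, small extracellular vesicles (sEV) to the rest. The sEV came from DMSO-treated 4T1 cells for 1 tumour (Cont sEV) and from 4T1 cells driven into therapy-induced senescence for 3 (TIS sEV). The donor cells were treated for 72 h, with 100 ng/ml nocodazole for the TIS sEV, and released for 72 h. The labels used here state no age of the mice. The series asks what vesicles of senescent tumour cells do to a growing tumour of the same line. The table's columns carry abbreviations read here as these groups, a reading the labels do not spell out. Every tumour rests on 1 tumour cell line, and the control vesicles on 1 library. The labels do not say that replicates are separate animals, so a p-value here reflects sample-to-sample spread that could be purely technical.

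Levels are TPM (transcript abundance per library, corrected for transcript length and scaled to a fixed total), so they can be compared between genes, and the depth behind them is unknown. TIS sEV replicate 2 stood apart. Its nuclear protein-coding genes held 28.6% of the total (other 6 libraries, 56.8% to 74.7%) and its nuclear ribosomal RNA genes 22.9% (others, 0.807% to 2.40%). TPM has a fixed total, so a larger share for some genes lowers the values of the rest, and the main results are also given without that library or after rescaling. In bulk tumour RNA, fewer cells of a type and less RNA per cell cannot be told apart.

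The mouse has several chymases, chymotrypsin-like serine proteases. Mcpt1 and Mcpt2 are known as proteases of mucosal mast cells, which appear in epithelia during inflammation and parasite infection. Mcpt4 and Cma1 (also called mast cell protease 5) are chymases of connective tissue mast cells, the type found in skin, fat and the mammary stroma. Tpsb2 encodes a tryptase, a trypsin-like protease that acts as a tetramer held by heparin, and Cpa3 encodes the granule carboxypeptidase A. Mcpt8 is, despite its name, the protease by which mouse basophils are recognised. Hdc makes histamine from histidine and is also used by immature myeloid cells. Kit is the receptor for stem cell factor, on which mast cells depend to survive, and Fcer1a is the chain of the high-affinity receptor that binds immunoglobulin E.

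The 6 mast cell proteases were highest in TIS sEV replicates 1 and 3, whereas Mcpt8, Hdc and Kit had other patterns. Mcpt1 (chromosome 14, 56017971 to 56020384 on the plus strand, GRCm38) was at 81.2, 2.39 and 82.7 TPM in TIS sEV replicates 1, 2 and 3. It was at 6.65, 7.82 and 0.545 TPM in saline replicates 1, 2 and 3 and at 2.91 TPM in the Cont sEV tumour. The TIS sEV mean was 55.4 ± 45.9 TPM and the saline mean 5.00 ± 3.90 TPM (SD, n = 3). The groups overlapped, since the lowest TIS sEV library lay below 2 of the saline libraries.

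Mcpt2, the neighbouring gene (chromosome 14, 56042041 to 56044642), had the same order of libraries, with only the top places exchanged. Its TIS sEV levels were 44.5, 0.856 and 36.9 TPM, against 2.48, 4.38 and 0.364 TPM in the saline libraries and 1.90 TPM with Cont sEV. The means were 27.4 ± 23.3 and 2.41 ± 2.01 TPM (SD, n = 3). Across the 7 libraries the highest level was 152 times the lowest for Mcpt1 and 122 times for Mcpt2, while the ratio of Mcpt1 to Mcpt2 stayed between 1.50 and 2.79. Of the distinct stretches of 31 bases in the Mcpt1 transcript, 6.71% occurred in another gene's transcripts, most of them in Mcpt2, and the share was 5.14% for Mcpt2. Reads over those stretches could be split between the copies, so part of each value is uncertain.

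**Figure D1:**
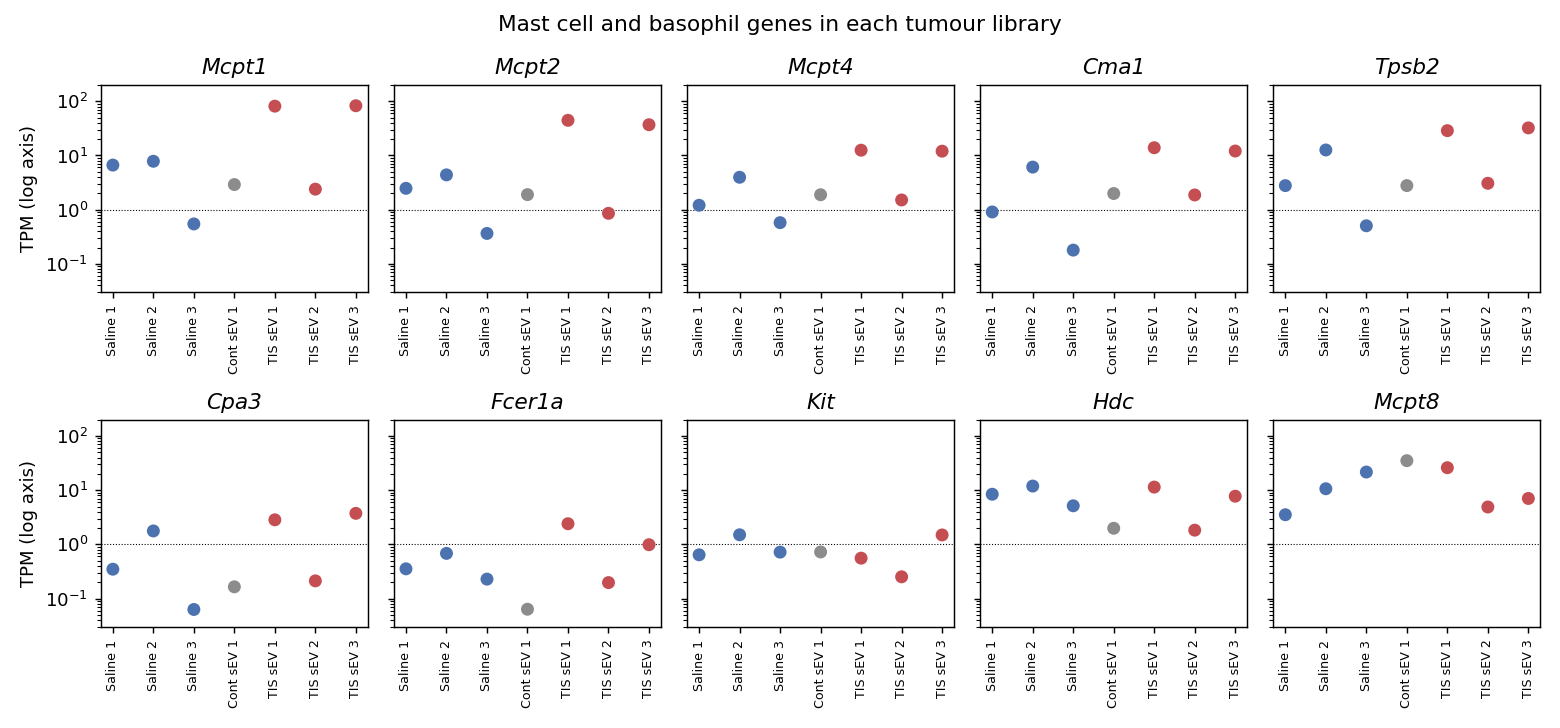
Level in TPM on a log axis of each of the 10 genes in each library, with 1 point per library (blue saline, grey Cont sEV, red TIS sEV) and a dotted line at 1 TPM. Mcpt1, Mcpt2, Mcpt4, Cma1, Tpsb2 and Cpa3 share the pattern of high points in TIS sEV replicates 1 and 3, while Mcpt8 is highest in the Cont sEV tumour at 35.1 TPM.

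Chymases of the connective tissue type had the same high libraries, where they were lower in level than Mcpt1 and Mcpt2. Elsewhere that order was not always kept, as in saline replicate 2, with Cma1 at 6.10 and Mcpt2 at 4.38 TPM. Mcpt4 (chromosome 14, 56059629 to 56062313, minus strand) was at 12.5, 1.51 and 12.0 TPM with TIS sEV, 1.21, 3.96 and 0.576 with saline and 1.88 with Cont sEV. Cma1 (chromosome 14, 55941451 to 55944675, minus strand) was at 13.9, 1.87 and 12.1 TPM with TIS sEV, 0.907, 6.10 and 0.179 with saline and 1.98 with Cont sEV. For both genes TIS sEV replicates 1 and 3 lay above every saline library, and TIS sEV replicate 2 lay inside the saline range. The share of 31-base stretches found in other genes was 12.2% for Mcpt4, mostly in the chymase gene Cma2, and 10.6% for Cma1, all in the predicted gene Gm48934.

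The tryptase gene Tpsb2 (chromosome 17, 25366305 to 25369098, plus strand) lies outside the chymase cluster. Its level was 28.7, 3.07 and 32.2 TPM with TIS sEV, 2.78, 12.6 and 0.504 in the saline libraries and 2.78 in the Cont sEV tumour. Saline replicate 2, at 12.6 TPM, was the highest library outside TIS sEV replicates 1 and 3. Cpa3 (chromosome 3, 20215620 to 20242181, minus strand) was at 2.84, 0.213 and 3.74 TPM with TIS sEV, 0.349, 1.77 and 0.0630 with saline and 0.165 with Cont sEV. Of the 6 proteases Cpa3 had the lowest mean with TIS sEV, 2.27 ± 1.83 TPM, against 0.728 ± 0.915 TPM with saline (SD, n = 3). Tpsb2 shared 0.557% of its 31-base stretches with another gene, and Cpa3 and Mcpt8 shared none.

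By mean level with TIS sEV the proteases ran from Mcpt1 through Mcpt2, Tpsb2 (21.3 ± 15.9), Cma1 (9.28 ± 6.48) and Mcpt4 (8.67 ± 6.21) to Cpa3. With saline the order was Tpsb2 (5.30 ± 6.44), Mcpt1, Mcpt2, Cma1 (2.40 ± 3.23), Mcpt4 (1.91 ± 1.80) and Cpa3 (SD, n = 3). Neighbours in either order differed by less than the larger of their SDs, except Mcpt4 and Cpa3 with TIS sEV. Within a library, Mcpt1 was above Mcpt2 in all 7.

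The make-up of the protease mixture differed between libraries as well as its amount. The 6 genes summed to 184 TPM in TIS sEV replicate 1 and 180 TPM in replicate 3, and to 9.90 TPM in replicate 2. The sums were 14.4, 36.6 and 2.23 TPM in the saline libraries and 11.6 TPM with Cont sEV. Mcpt1 and Mcpt2 together made up 68.4% and 66.6% of the sum in TIS sEV replicates 1 and 3 and 63.5% in saline replicate 1. Their share was 32.8% in TIS sEV replicate 2, 41.3% with Cont sEV, and 33.3% and 40.7% in saline replicates 2 and 3. The share did not simply follow the sum, since saline replicate 1 came close to the share of TIS sEV replicates 1 and 3 at a sum of 14.4 TPM. These shares do not depend on how a library is scaled. Within the connective tissue pair of chymases, the ratio of Mcpt4 to Cma1 was 0.900, 0.808 and 0.994 with TIS sEV, 1.33, 0.649 and 3.21 with saline and 0.950 with Cont sEV, and the widest of these, in saline replicate 3, came from levels under 1 TPM.

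**Figure D2:**
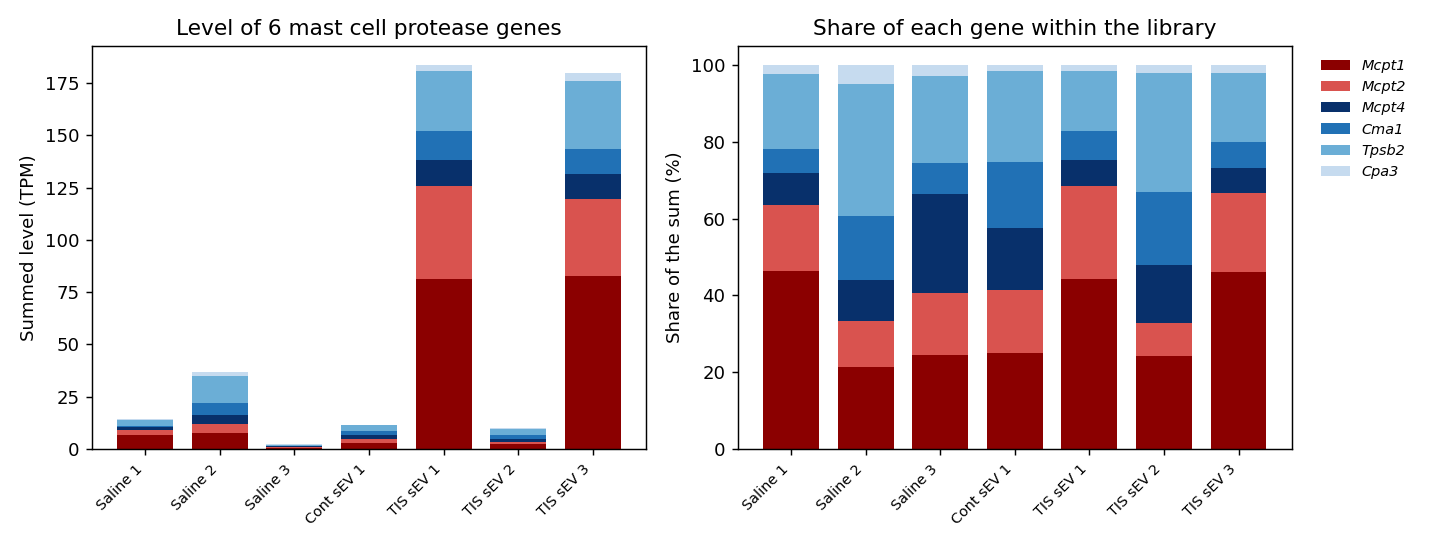
Left, the level of 6 mast cell protease genes stacked for each library in TPM; right, the share of each gene in that sum in percent, with mucosal type proteases in red and connective tissue type proteases in blue. The sums reach 184 and 180 TPM in TIS sEV replicates 1 and 3 and 2.23 to 36.6 TPM elsewhere, and the red share ranges from 32.8% to 68.4%.

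Rescaling raised TIS sEV replicate 2 without bringing it near the other TIS sEV libraries. With TPM rescaled to the nuclear protein-coding genes of each library, the sum of the 6 proteases was 283, 34.6 and 282 in the TIS sEV libraries, 25.3, 49.7 and 2.99 in the saline libraries and 15.7 with Cont sEV. With median-of-ratios size factors (a scale set by the typical gene) the sums were 146, 27.9 and 179 with TIS sEV and 14.1, 24.1 and 1.47 with saline, so that replicate 2 moved from inside the saline range to just above it. On that scale 4 of 8 tested members (Mcpt1, Mcpt4, Cma1 and Tpsb2) had every TIS sEV library above every saline library, as had 11.4% of all tested genes. The margin was small, at 6.72 in TIS sEV replicate 2 against 6.54 in saline replicate 1 for Mcpt1 and 8.62 against 8.29 in saline replicate 2 for Tpsb2. On the deposited TPM scale no tested member had groups that did not overlap, against 14.3% of all tested genes.

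Mcpt8 (chromosome 14, 56082166 to 56085273, minus strand) lies in the same cluster as the chymases and did not follow them. It was highest with Cont sEV, at 35.1 TPM, followed by TIS sEV replicate 1 at 26.01 and saline replicate 3 at 21.6 TPM. Saline replicates 1 and 2 were at 3.53 and 10.6 TPM, and TIS sEV replicates 2 and 3 at 4.90 and 7.04 TPM. The means of TIS sEV and saline, 12.7 ± 11.6 and 11.9 ± 9.12 TPM (SD, n = 3), differed by much less than their spread. Saline replicate 3 shows the divergence most plainly: it had the lowest level of all 6 mast cell proteases, and its Mcpt8 level was 9.69 times their sum. In TIS sEV replicate 3, with high chymases, that ratio was 0.0392.

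Hdc (chromosome 2, 126593667 to 126619299, minus strand) was at 11.4, 1.83 and 7.75 TPM with TIS sEV, 8.42, 11.9 and 5.16 with saline and 1.98 with Cont sEV. The TIS sEV mean of 7.0 ± 4.84 TPM and the saline mean of 8.50 ± 3.38 (SD, n = 3) overlapped throughout. Saline replicate 3 held Hdc at 5.16 TPM with each mast cell protease at or under 0.576 TPM, so the histamine gene was detected where the proteases were lowest. The sum of 8 neutrophil genes, among them S100a8, S100a9 and Retnlg, was 6082, 1969 and 1187 TPM with saline, 514 with Cont sEV and 1766, 969 and 1675 with TIS sEV. On the TPM scale its lowest values, like those of Hdc, were in the Cont sEV tumour and TIS sEV replicate 2. Its highest value was in saline replicate 1, and that of Hdc in saline replicate 2. With size factors TIS sEV replicate 2 lay above saline replicates 2 and 3 for S100a8 (851) and S100a9 (1810), most of that sum. Ly6g was below both and Cxcr2 between them. Hdc on that scale was at 5.15 in TIS sEV replicate 2 and 3.39 in saline replicate 3. The part of neutrophils in the Hdc level was not tested.

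Both receptors were close to the limit of what the table resolves. Kit (chromosome 5, 75574916 to 75656722, plus strand) was at 0.558, 0.253 and 1.49 TPM with TIS sEV, 0.643, 1.51 and 0.721 with saline and 0.726 with Cont sEV, with overlapping groups. In TIS sEV replicate 1, where the proteases summed to 184 TPM, Kit lay below all saline libraries. Fcer1a (chromosome 1, 173221284 to 173227214, minus strand) was at 2.41, 0.198 and 0.988 TPM with TIS sEV, 0.354, 0.683 and 0.229 with saline and 0.0637 with Cont sEV. Like the proteases it was highest in TIS sEV replicates 1 and 3. Neither receptor reached 1 TPM in 3 libraries, the minimum for a test, so 8 of the 10 genes entered the fit. Cpa3 met that minimum in exactly 3 libraries, TIS sEV replicates 1 and 3 and saline replicate 2.

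The sequences before the start sites of 4 of these genes are shown because 3 of them share the protease pattern and Mcpt8, from the same cluster, does not. They are the 250 bases before the start in RefSeq's GRCm38.p6 table, which held 8 of the 10 genes (not Mcpt2 or Tpsb2). Capitals mark each match to a GATA motif, that is GATAA or GATAG with A or T before it, on either strand. Gata2, a factor that binds such words, is known to be needed for mast cells and basophils. The windows are Mcpt1 (chr14:56017714-56017963, plus strand), Mcpt4 (chr14:56062311-56062560, minus strand), Cpa3 (chr3:20242182-20242431, minus strand) and Mcpt8 (chr14:56085198-56085447, minus strand).
Mcpt1: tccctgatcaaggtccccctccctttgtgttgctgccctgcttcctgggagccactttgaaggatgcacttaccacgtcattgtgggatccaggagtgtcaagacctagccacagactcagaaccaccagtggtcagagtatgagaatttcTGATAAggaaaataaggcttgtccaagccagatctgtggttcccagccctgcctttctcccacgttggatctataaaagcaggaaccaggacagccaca
Mcpt4: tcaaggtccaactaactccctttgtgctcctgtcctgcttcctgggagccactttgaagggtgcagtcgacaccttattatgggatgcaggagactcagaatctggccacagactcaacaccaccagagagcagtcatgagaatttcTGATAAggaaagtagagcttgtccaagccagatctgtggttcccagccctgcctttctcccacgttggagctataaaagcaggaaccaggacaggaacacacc
Cpa3: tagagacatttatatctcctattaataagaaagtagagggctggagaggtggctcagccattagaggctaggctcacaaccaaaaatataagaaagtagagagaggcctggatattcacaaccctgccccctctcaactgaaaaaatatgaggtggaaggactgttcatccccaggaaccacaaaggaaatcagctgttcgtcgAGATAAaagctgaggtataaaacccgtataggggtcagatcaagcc
Mcpt8: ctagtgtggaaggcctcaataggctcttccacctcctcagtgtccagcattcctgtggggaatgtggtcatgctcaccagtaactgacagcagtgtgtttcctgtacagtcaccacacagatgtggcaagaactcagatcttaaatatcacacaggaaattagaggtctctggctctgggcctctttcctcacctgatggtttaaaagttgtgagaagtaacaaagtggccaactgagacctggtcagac
The Mcpt1 and Mcpt4 windows were 81.9% identical in a global alignment, although the genes are read from opposite strands and count as mucosal and connective tissue type. All 27 other pairs of windows were 44.1% to 54.8% identical, Mcpt1 and Mcpt8 at 54.3%.

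Both close copies carried TGATAA, with its first base 99 bases before the start in Mcpt1 and 103 in Mcpt4, and TATAAA 28 and 32 bases before it. Cpa3 had AGATAA 46 bases and TATAAA 31 bases before its start. Of the 8 genes with a window, 6 held a GATA word, namely Mcpt1, Mcpt4, Cma1, Cpa3, Hdc and Fcer1a, against 26.5% of 32851 windows of all genes. TATAAA on the gene's own strand was in 4 of 8 (Mcpt1, Mcpt4, Cpa3 and Fcer1a) against 7.59% of all windows. The E-box words CATGTG and CACGTG, a kind bound by Mitf, were in 1 of 8 on either strand, Fcer1a, against 17.6%. For Fcer1a the bases after RefSeq's start were not found in a GENCODE transcript of the gene, so its window may not be placed as the others are. Without it the counts were 5, 3 and 0 of 7 for the GATA word, TATAAA and the E-box. No GATA match overlapped a TATAAA or E-box match. A match is a description of letters, not of a site in use, and windows of related genes share ancestry.

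In the fit across the 12058 genes that reached 1 TPM in 3 or more libraries, differences are on the log2(TPM + 1) scale, which understates the change of low genes. The median gene itself differed by -0.62 between TIS sEV and saline, so each gene's difference minus that median is given. On this relative scale Mcpt1 differed by 3.22, Mcpt2 by 2.94, Tpsb2 by 2.52, Cma1 by 2.33, Mcpt4 by 2.18 and Cpa3 by 1.44. Mcpt8 differed by 0.65 and Hdc by 0.19. All 8 tested members lay above the median gene, with a median of 2.25.

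The spread behind these values was large. limma gave the Mcpt1 difference an SE of 0.65, because its moderation set every gene's spread to that fitted for its expression level. From the gene's own residuals the SE was 1.74, and 99.7% of tested genes had a smaller residual SD than Mcpt1. For Mcpt2 the SEs were 0.61 and 1.61, for Tpsb2 0.64 and 1.35, for Cma1 0.56 and 1.09, for Mcpt4 0.55 and 0.94 and for Cpa3 0.38 and 0.74. For each of the 6 genes TIS sEV replicate 2 lay far below the other TIS sEV libraries.

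Of the 8 tested members, 2 (Mcpt1 and Mcpt2) passed limma's adjusted threshold of 0.05 for TIS sEV against saline, where 0.514% of all tested genes passed. Nothing is read from that count, because the genes were chosen on these levels. Without TIS sEV replicate 2 it was 6 of 8, all 6 proteases other than Mcpt8, where 0.871% of all genes passed. The Mcpt1 difference (not relative to the median gene) then went from 2.60 to 4.14. Its limma SE of 0.41 was again set by the spread fitted for its level, not by the gene's own residuals. With size factors and without that library the difference was 4.22 (SE 0.72), and 0 of 8 members and 0 of 12058 genes passed. That library left out, the remaining TIS sEV and all saline values did not overlap for the same 6 genes, TIS sEV being higher, as it was for 5.67% of all genes. With size factors limma passed 0 of 8 members and 0 of 12058 genes, while 1781 genes had an unadjusted p under 0.05. The Mcpt1 difference was 3.13 (SE 1.02) there, close to the 3.22 relative to the median gene on the TPM scale. Without any single saline library 0 of 8 members passed, where 7 to 44 of 12058 genes did. Without TIS sEV replicate 1 or 3 it was also 0 of 8, where 353 and 35 of all genes passed. Leaving out TIS sEV replicate 1 gave 1.51 for Mcpt2, and leaving out saline replicate 3 gave 1.80 for Mcpt1.

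**Figure D3:**
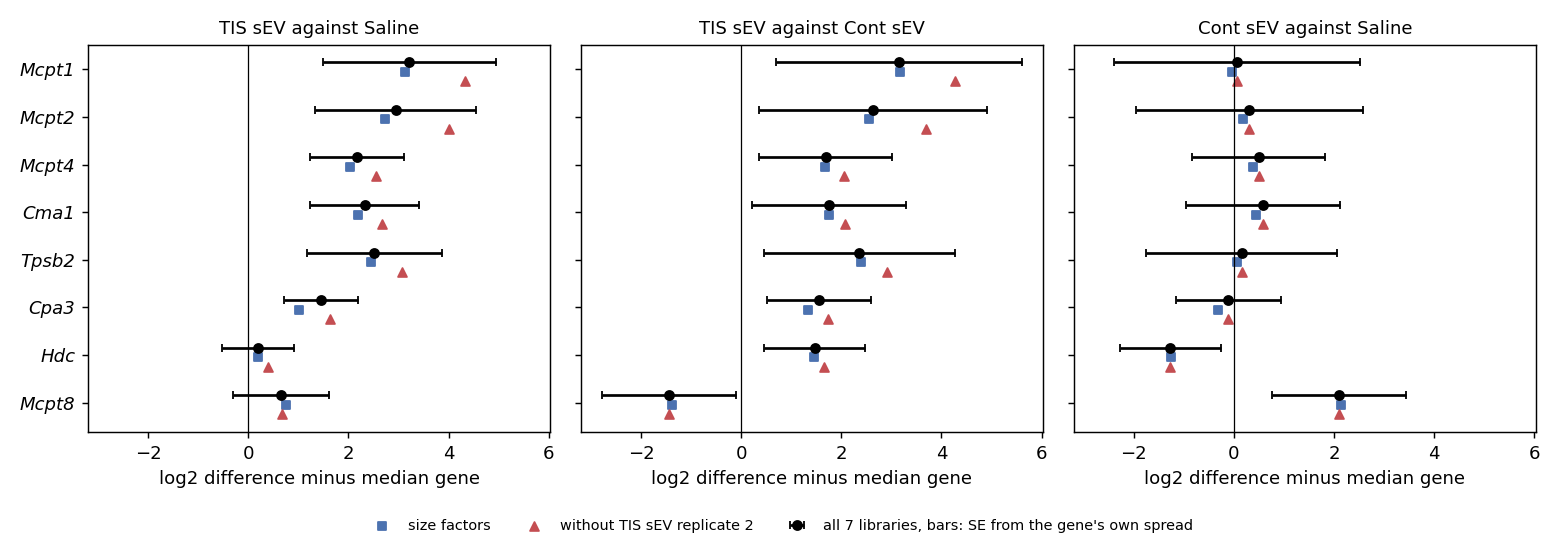
Log2 difference minus that of the median gene for the 8 tested members in each of 3 comparisons. Black circles use all 7 libraries with bars of 1 SE from the gene's own spread, blue squares use size factors and red triangles leave out TIS sEV replicate 2. The 6 mast cell proteases lie between 1.44 and 3.22 for TIS sEV against saline (black), and Mcpt8 lies at -1.44 for TIS sEV against Cont sEV.

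Against the lone Cont sEV tumour, TIS sEV replicates 1 and 3 were higher in the 6 proteases and Hdc and lower in Mcpt8. On the TPM scale TIS sEV replicate 2 lay below that tumour for Mcpt1, Mcpt2, Mcpt4, Cma1, Hdc and Mcpt8. It was above that tumour for Tpsb2 and Cpa3. With size factors it was below that tumour for Mcpt8 alone of the 8, at 13.8 against 34.7. The 6 proteases and Hdc were then higher in TIS sEV replicate 2, with Mcpt1 at 6.72 against 2.88 and Hdc at 5.15 against 1.96. This comparison shares its TIS sEV libraries with the one against saline, so the values are given side by side only. Relative to the median gene, which differed by -0.29, Mcpt1 was at 3.16, Mcpt2 at 2.64, Tpsb2 at 2.36, Cma1 at 1.75, Mcpt4 at 1.69, Cpa3 at 1.56, Hdc at 1.47 and Mcpt8 at -1.44. The median of the 8 was 1.72. With 1 Cont sEV library the SEs from the genes' own spread were larger, 2.45 for Mcpt1 and 1.34 for Mcpt8. None of the 8 passed, where 0.224% of all genes did. Without TIS sEV replicate 2 the 6 proteases passed, where 0.854% of all genes did. Nothing is read from that count, because the genes were chosen on these levels and it rests on 1 Cont sEV library. The library left out is also the TIS sEV library in which the 6 proteases were lowest. The proteases did not keep that pass with size factors and without TIS sEV replicate 2, where almost no gene of any kind passed.

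Cont sEV against saline gave values near the median gene for the proteases. Relative to the median gene (-0.33), Mcpt1 was at 0.063, Mcpt2 at 0.31, Mcpt4 at 0.49, Cma1 at 0.58, Tpsb2 at 0.16 and Cpa3 at -0.11, each smaller than its SE. For all 6 proteases the Cont sEV level lay within the saline range. Mcpt8 was at 2.10 (SE 1.34 from its own spread) and Hdc at -1.28 (SE 1.01). Mcpt8 was higher and Hdc lower in the Cont sEV tumour than in every saline tumour. This rests on 1 Cont sEV library, and how many of all genes lay outside the saline range there was not counted, so nothing is read from it. None of the 8 passed, where 0.207% of all genes did. Without TIS sEV replicate 2 Mcpt8 alone passed, where 1.63% of all genes did. Nothing is read from that pass either, because the genes were chosen on these levels and it rests on 1 Cont sEV library. With size factors and without TIS sEV replicate 2 Mcpt8 did not pass, where almost no gene of any kind passed.

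Other genes of the mast cell and basophil programme were read from 8 lists of 57 genes that are no members, of which 56 were in the table and 29 were tested. In limma 0 of the 29 passed for TIS sEV against saline, and 3 (10.3%) had an unadjusted p under 0.05, the same share as the 10.3% of all tested genes. The lowest adjusted p was that of Tpsab1, the second tryptase gene beside Tpsb2. Its level was 36.1, 2.01 and 38.4 TPM with TIS sEV, 2.82, 16.1 and 0.525 with saline and 2.58 with Cont sEV. Its difference was 1.82 (SE 0.64, limma adjusted p = 0.307). The ratio of Tpsb2 to Tpsab1 was 0.786 to 1.52 over the 7 libraries. The other 2 were Tph1, which starts serotonin synthesis (1.90, 0.449 and 1.41 TPM with TIS sEV, 0.178, 0.472 and 0.103 with saline), and Tslp, an epithelial cytokine that acts on mast cells and basophils (707, 149 and 1497 against 800, 1472 and 1263 TPM). Relative to the median gene Tph1 differed by 1.42 and Tslp by -0.46, and with size factors the differences were 1.02 and -0.28. The highest Tslp level was in TIS sEV replicate 3. Tph1 was also at 1.58 TPM with Cont sEV.

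Among further proteases, Cma2 was at 6.80 and 1.51 TPM in TIS sEV replicates 1 and 3, was listed at 0 in replicate 2 and in the Cont sEV tumour, and stayed at or under 0.339 TPM with saline. Its transcripts share stretches with Mcpt4. Mcpt9, Tpsg1, Prss34 (a protease of basophils and mucosal mast cells) and Ctsg stayed under 1 TPM in every library. Gzmb, a granzyme of killer lymphocytes that mast cells can also hold, was at 20.3, 0.558 and 8.99 TPM with TIS sEV and 7.42, 15.5 and 11.8 with saline.

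The receptor and signalling list held 4 tested genes of 6, with a median of 0.67 relative to the median gene. Fcer1g, the signalling chain of the immunoglobulin E receptor that macrophages and other myeloid cells also use, was at 91.6 to 191 TPM with TIS sEV and 103 to 174 with saline. Ms4a2, the beta chain found mainly in mast cells and basophils, reached at most 0.290 TPM. The adaptor Lat2 was at 5.93 to 27.6 TPM with TIS sEV and 11.1 to 27.2 with saline, and the kinases Syk (1.89 to 3.88 against 1.97 to 4.01) and Btk (2.18 to 3.70 against 1.88 to 2.99) overlapped too. With size factors Lat2 and Btk still overlapped, while Syk was at 3.07 to 5.31 with TIS sEV and at most 2.63 with saline. On that scale 11.4% of all tested genes had every TIS sEV library above every saline library.

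Granule and amine genes gave a median of -0.025 over 4 tested of 6. Srgn, the serglycin core protein that binds granule proteases through heparin and that most leukocytes make, was at 360, 135 and 170 TPM with TIS sEV and 300, 448 and 188 TPM with saline. Ndst2, which sulfates heparin, was at 1.50 to 9.12 against 7.43 to 12.0 TPM, and Cd63, a granule and vesicle membrane protein, at 223 to 1280 against 979 to 1733 TPM. Slc18a2, the carrier that loads histamine into granules, stayed at or under 0.0869 TPM.

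Transcription factors gave a median of 0.090 over 4 tested of 7. Gata2 was at 0.643, 0.183 and 0.847 TPM with TIS sEV and 0.311, 0.811 and 0.189 with saline, too low to be tested. Runx1 (5.10 to 16.8 TPM with TIS sEV against 16.0 to 20.7 with saline), Stat5a (2.42 to 7.19 against 6.28 to 8.80), Stat5b (2.16 to 6.84 against 5.27 to 8.92) and Mitf (0.897 to 1.27 against 1.13 to 2.27) are expressed in many cell types.

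Growth factors and cytokine receptors gave a median of 0.16 over 6 tested of 11. Kitl, the stem cell factor that binds Kit, was at 3.43, 1.67 and 3.86 TPM with TIS sEV, 5.47, 8.34 and 6.99 with saline and 3.32 with Cont sEV, with no overlap of TIS sEV and saline, as for 14.3% of all tested genes. Its difference was -1.02 (SE 0.60, limma adjusted p = 0.476), or -0.41 relative to the median gene. With size factors the groups overlapped, since TIS sEV replicate 2 was at 4.69 and saline replicate 3 at 4.59. Il33 was highest in saline replicate 1, at 10.4 TPM, and at 0.733 to 3.39 TPM elsewhere. With size factors its level was 10.2 in saline replicate 1 and 9.54 in TIS sEV replicate 2. Csf2rb, the shared beta chain of the Il3 receptor, was at 1.48 to 5.72 against 2.82 to 7.81 TPM, and Il3ra, its alpha chain, at 2.72 to 6.41 against 1.90 to 3.10 TPM. Il9 was listed at 0 in every library, and Il3, Il5 and Il13 stayed under 0.5 TPM. Il4, a cytokine that basophils and T cells make, was too low to be tested, at 0.347, 1.27 and 0.375 TPM with TIS sEV and 0.143 TPM in saline replicate 1, and was listed at 0 in the other saline libraries and with Cont sEV.

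Lipid mediator enzymes gave a median of 0.36 over all 7 genes, with 5 above the median gene. Ltc4s, which makes leukotriene C4, was at 58.9, 35.1 and 104 TPM with TIS sEV and 45.9, 65.7 and 57.2 with saline. With size factors it was at 46.8, 98.8 and 104 with TIS sEV and at most 45.2 with saline. On that scale 11.4% of all tested genes had every TIS sEV library above every saline library. Alox5ap (35.4 to 72.2 against 52.4 to 87.2 TPM), Ptgs1 (3.54 to 37.8 against 13.01 to 39.5) and Ptgs2 (0.911 to 23.2 against 13.2 to 29.6) overlapped. Hpgds, the prostaglandin D synthase of mast cells and macrophages, was at 1.14 to 5.76 against 1.60 to 5.51 TPM. The receptors Hrh2, Hrh3 and Hrh4 and the histamine-degrading Hnmt stayed under 1 TPM, and Hrh1 reached 1.27 TPM. Among surface receptors Mrgprb2, a receptor specific to connective tissue mast cells, stayed at or under 0.0255 TPM, and Cd200r3, found on basophils and mast cells, was highest in TIS sEV replicate 1, at 2.00 TPM. The 2 tested genes of 7 in that list, Cd33 and Adora3, had a median of 0.14.

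Checked against markers, the tumours held the protease transcripts of mast cells, with the low-abundance receptors Kit, Fcer1a, Ms4a2, Mrgprb1 and Mrgprb2 at or under 2.41 TPM throughout. A list of 6 basophil genes summed to 7.69, 14.6 and 23.9 TPM with saline, 39.5 with Cont sEV and 34.1, 8.05 and 15.4 with TIS sEV. Mcpt8 was the highest of the 6 in every library. Eosinophil genes summed to at most 3.45 TPM over 7 genes, with Ear1 at 0. Melanocyte genes, another known source of Kit, summed to at most 0.303 TPM over 5 genes, with Tyr and Tyrp1 at 0.

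Markers of adjoining tissue differed between libraries. The sums are on the TPM scale, where the typical gene was low in TIS sEV replicate 2 (size factor 0.355). Fibroblast genes, 8 in number, summed to 31.6 to 96.7 TPM with saline, 30.0 with Cont sEV and 46.1, 20.6 and 61.4 with TIS sEV. Adipocyte genes, 6 in number, were highest in TIS sEV replicate 2 at 41.6 TPM, nearly all from Cfd, and at or under 2.41 TPM in all saline libraries. Skeletal muscle genes were highest in saline replicate 3, at 52.6 TPM, the library with the lowest proteases, and the milk and luminal genes in the Cont sEV tumour, at 20.0 TPM. Keratin and skin genes were highest in TIS sEV replicate 1, at 73.3 TPM, mainly Krt14, and lowest in TIS sEV replicate 3, at 6.97 TPM. Genes of blood cell progenitors, 5 in number and mostly Ly6a, which other cells also make, summed to 554, 30.5 and 203 TPM with TIS sEV, 129, 124 and 264 with saline and 408 with Cont sEV. Macrophage genes, 6 in number, summed to 404, 418 and 1008 TPM with TIS sEV, 310, 1001 and 713 with saline and 709 with Cont sEV. With size factors TIS sEV replicate 2 was the highest library for C1qa (630), C1qb (339), Mrc1 (84.8) and Cd68 (103). It was not the highest for Adgre1 and Csf1r. Epithelial tumour cell genes, 5 in number and mostly Krt8 and Krt18, summed to 1702, 514 and 2413 TPM with TIS sEV, 1391, 3698 and 4082 with saline and 2539 with Cont sEV. With size factors Krt8 was at 614 and Krt18 at 723 in TIS sEV replicate 2. The saline libraries held 589 to 1128 and 703 to 1392. The median difference of the 5 genes was -0.54 relative to the median gene, and none of the 5 passed. The part of tumour cell share or of other tissue in the protease levels was not tested.

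The genes nearest to the mean profile of Mcpt4, Cma1, Tpsb2 and Cpa3 were ranked by the root mean square difference between profiles standardised to mean 0 and SD 1 over the 7 libraries. Of the 12050 tested genes that are no members, 1157 with predicted, clone or mitochondrial names were left out. Among the remaining 10893, Tpsab1 was first, at 0.116. Rab32, a small GTPase of lysosome-related organelles, followed at 0.241, at 7.88, 4.94 and 8.10 TPM with TIS sEV, 5.06, 5.86 and 4.35 with saline and 4.53 with Cont sEV. Next came Pik3r5, a subunit of a lipid kinase (0.360), A4galt (0.372), Atp6v0d2, a subunit of a proton pump (0.392), Il20rb, a cytokine receptor chain (0.424), Ocel1 (0.428) and the carbonic anhydrase Car2 (0.438). The ratio of highest to lowest level was smaller for these 7 than for any of the 6 proteases, with Ocel1 at 8.13 to 13.1 TPM.

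Measured the same way, Mcpt2 lay at 0.296 and Mcpt1 at 0.316 from that mean profile, with 2 of the 10893 genes nearer. Fcer1a lay at 0.539, with 20 genes nearer. Hdc was at 0.922 (421 nearer), Kit at 1.02 (773 nearer) and Mcpt8 at 1.39 (8060 nearer). Nearest to Hdc were Dnm1 (0.210), the complement gene C3 (0.237), Zfp36 (0.262) and Dusp1 (0.267), the last a pair of genes quickly induced by stress. These ranks are a description of 7 libraries.

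**Figure D4:**
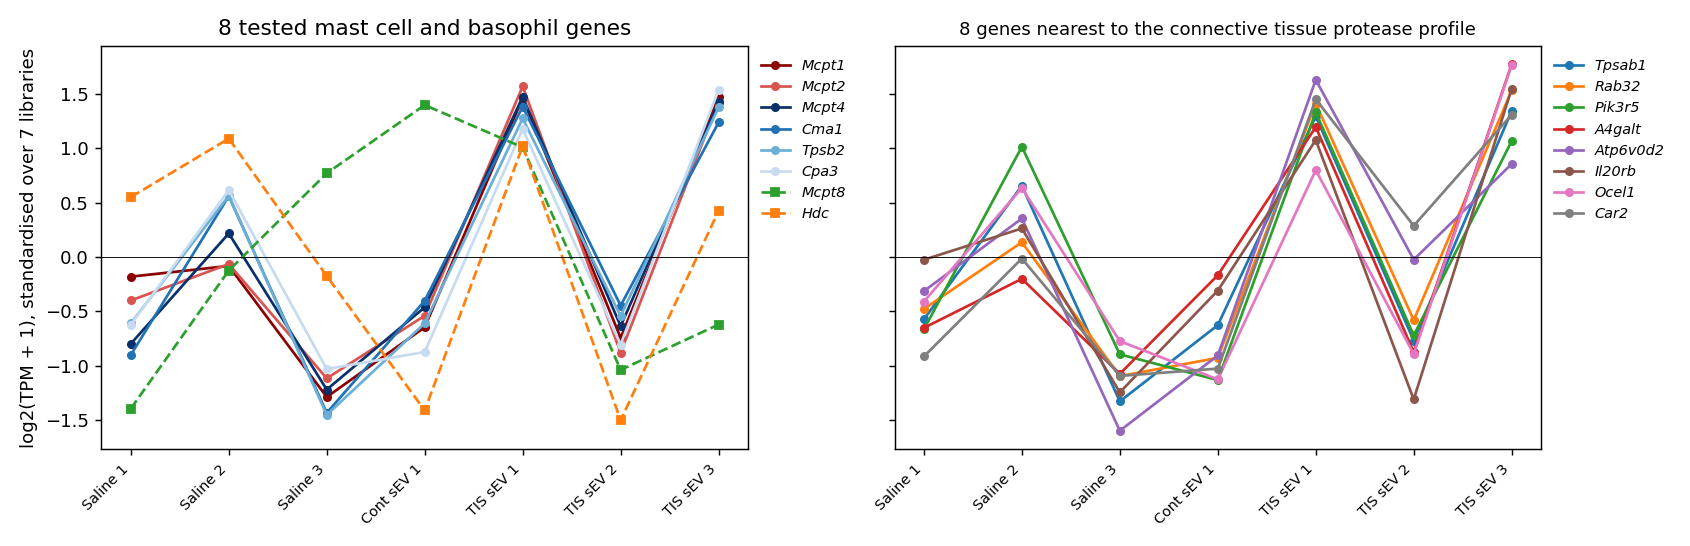
log2(TPM + 1) standardised over the 7 libraries, with lines joining the libraries for reading only; left the 8 tested members, right the 8 genes nearest to the connective tissue protease profile. The 6 mast cell proteases peak in TIS sEV replicates 1 and 3, as do the genes at right, while Mcpt8 (green, dashed) peaks in the Cont sEV tumour and Hdc (orange, dashed) in saline replicate 2.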

How the data were processed

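RNA of 7 primary tumours was sequenced, and the authors deposited 1 table of TPM values for 55487 genes. By the submitters' processing notes, Salmon 1.4.0, Trim Galore 0.6.6, FastQC 0.11.9 and DESeq2 1.28.0 were used with GRCm38.p6. Which annotation was quantified, and how transcripts became genes, the sources used here do not give. Each column summed to 1000000, TPM keeps no depth, and no counting interval can be given. The columns CE and NcE were read as control and nocodazole (TIS) vesicles, which the labels do not spell out, and every vesicle comparison rests on it. Names, types and coordinates came from GENCODE M21 (GRCm38), which held 55227 of the gene identifiers with the version dropped.

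One limma 3.58.1 fit (R 4.3.3) on log2(TPM + 1) held 1 mean per group over the genes that reached 1 TPM in 3 or more libraries, with the intensity trend, 4 residual degrees of freedom and two-sided tests, Benjamini-Hochberg adjusted over all 12058 genes. The Cont sEV library was assumed to vary like the others. The fit was also run on simulated data in which every gene had the same spread. That run cannot show how the fit treats genes of wide spread, such as Mcpt1. Alternatives were size factors, quantile normalization, rescaling to coding genes, a pseudocount of 0.1, other filters, no trend, a replicate block and leaving out each library, over the same genes except under the other filters. Size factors without TIS sEV replicate 2 were added after seeing the data.

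The members and lists were chosen with earlier results of these data known. All 10 members are named. Of each list the tested genes with the highest mean level (up to 4) and any that passed were to be named, with the 8 genes nearest in profile to the mean of Mcpt4, Cma1, Tpsb2 and Cpa3 and the 4 nearest to Hdc. Other genes, such as Cma2, Gata2, Hpgds and Il33, were named after their values were seen.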

Additional observations from a re-analysis of the deposited data

How the results depend on the processing

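The differences of Mcpt1, Mcpt2, Mcpt4, Cma1, Tpsb2, Cpa3 and Tpsab1 between TIS sEV and saline kept their sign under every alternative that could be computed, and the median of the tested members relative to the median gene was 1.69 to 2.79 with 1 library left out. Those of Mcpt8 and Hdc changed sign under some. Tpsab1 passed without TIS sEV replicate 2 and under no other alternative. Mcpt8 and Hdc passed under none for that comparison. Calls depended on the processing, and the cause was not tested. For TIS sEV against saline, 62 genes passed (42 higher, 20 lower). The count was 0 with size factors, with and without TIS sEV replicate 2, 0 with quantile normalization, 0 after rescaling to coding genes and 0 with no filter, where 1230 to 1781 genes had an unadjusted limma p under 0.05. It was 30 with at least 5 TPM, 39 with no trend and 7 to 353 with 1 library left out. Leaving out TIS sEV replicate 1 turned the balance to 102 higher and 251 lower. For TIS sEV against Cont sEV, 27 passed, against 1 with size factors (also without TIS sEV replicate 2), 1 with quantile normalization, 2 after rescaling to coding genes, 246 with no filter, 9 with at least 5 TPM, 12 with no trend and 10 to 103 with 1 library left out. For Cont sEV against saline, 25 passed, against 1 with size factors (also without TIS sEV replicate 2), 2 with quantile normalization, 2 after rescaling to coding genes, 233 with no filter, 13 with at least 5 TPM, 16 with no trend and 11 to 197 with 1 library left out. With the replicate number as a block the 3 counts were 14, 5 and 9, and 0 members passed. The labels do not say that replicate numbers pair the samples, so the main fit held no block. Deviations of saline and TIS sEV libraries with the same number correlated, across genes, at -0.38, -0.0085 and 0.080. TPM keeps no depth, so values under 1 TPM, as for Kit and Fcer1a in most libraries, carry an unknown counting error.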
